A study of Homo sapiens with 51 samples.

Results

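Accessible chromatin of H1 cells, an established human embryonic stem cell line, was compared between day 5 and day 4 of a treatment labelled SMADi, which the labels call neuroectoderm. The assay was ATAC-seq, which reads out where a transposase can reach the DNA. The comparison was defined by the labels alone and uses 4 of the 51 libraries of the series, WT (unedited) day 5 a and b and WT day 4 a and b. All 162317 regions of the SMADi table entered, each 201 bp long on GRCh38, and 162313 passed the filter on low counts. The KO line, the line labelled DATG and WT day 1, all under SMADi, are used for comparison. KO had 2 libraries at day 5 and 1 at day 4, and DATG had 1 at day 5 and 2 at day 4. Every group had been grown in the STEMdiff SMADi Neural Induction Kit, with a ROCK inhibitor at seeding, per the labels. The labels name no edited gene and do not say whether a line is 1 clone, so no edit could be checked. Whether replicates were separate cultures is not stated either, and the p-values measure the spread between these libraries, which may be technical.

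Neural induction media of this kind block the SMAD signals of the BMP and the Activin/Nodal pathways. Pluripotent cells need Activin/Nodal and FGF signals to stay undifferentiated, and without SMAD signals they take up a neuroectodermal fate. Loss of the pluripotency network, a change from E-cadherin to N-cadherin at cell junctions and the opening of neural enhancers are known steps of that path. In ATAC-seq of bulk cells, fewer cells of a type and less open chromatin per cell cannot be told apart.

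The WT day 5 libraries were unequal in depth, with 7086918 counts in a and 15026768 in b. The WT day 4 libraries had 15478386 counts in a and 15750197 in b. The day 5 libraries also differed most from each other: 5.84% of regions were over 2-fold apart, against 0.770% between the day 4 libraries and 0.509% to 1.23% in the other replicate pairs. Results below are therefore given also with day 5 a or b left out where that changes them. The gene-linked count of a gene is the sum over all regions nearest to its ends and within 50 kb, given as counts per 1000000 of the TMM-scaled library size (CPM). The 10 markers of neuroectoderm were all open, none at 0, and at day 5 averaged between 35.4 CPM (ZIC1) and 214 CPM (SIX3). Loci of pluripotency, mesoderm and the other lists of other cell types were open as well, so these levels do not tell cell types apart. No member of those lists was at 0 in a day 5 library, while BATF, of the immediate early and AP-1 list, was.

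Regions opened and closed in nearly equal number between the days. At an adjusted p under 0.05 in edgeR's quasi-likelihood test, 12061 of 162313 regions (7.43%) were called, 6414 higher at day 5 (3.95%) and 5647 lower (3.48%). Of these, 7702 changed over 2-fold, 3343 of them higher and 4359 lower. Leaving out 1 library moved the count by over 1.5 times each time, to 7187 without day 5 a, 19011 without day 5 b, 3914 without day 4 a and 7669 without day 4 b. The calls that passed, in the same direction, with all libraries and without each of the 4 in turn numbered 2324, with 1246 higher and 1078 lower. The fits with only day 5 a or only day 5 b share both day 4 libraries. Agreement in direction between them is therefore no independent check of the day 5 pair. With all libraries, 34993 regions had an unadjusted p under 0.05 in the same test. Of 31494 genes with linked regions, 3039 (9.65%) were called, 1452 higher (4.61%) and 1587 lower (5.04%). Of these gene calls, 205 higher and 358 lower also passed without each WT library in turn. Counts were also simulated with these depths and the spread estimated over all 15 libraries. The wider spread of the WT day 5 pair was not simulated. There the test recovered 46% of regions and 83% of genes changed by 1 on the log2 scale, and 3% and 57% of those changed by 0.5. It made 8 false calls among 20000 regions and 4 among 20000 genes. In each simulation 200 of 20000 features were changed, a smaller share than the 7.43% of regions called in the data. The adjusted p depends on that share, so the recovered percentages need not hold for the data. Within the simulation, changes of 0.5 in single regions were mostly missed.

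Promoters moved mainly towards opening. Of 14669 regions that overlapped a promoter window, 699 were higher at day 5 (4.77%) and 107 were lower (0.729%). This split rested largely on the shallow library. Without day 5 a, 177 promoter regions were higher and 52 lower, and with day 5 a as the sole day 5 library the counts were 2098 and 521. With all libraries and without each WT library in turn, 5 fits in all, 38 stayed higher and 10 lower. Day 5 a held 21.1% and day 5 b 20.3% of their counts in promoter regions, against 19.5% and 19.0% in day 4 a and b, and the part of this share in the split was not tested. Of other regions within 1 kb of a gene end, 606 were higher and 494 lower with all libraries. The direction of this class depended on the day 5 library. Its median log2 fold change was -0.053 with all libraries, 0.016 without day 5 a and -0.19 without day 5 b. Farther out the directions were near balance with all libraries. At 1 to 50 kb from a gene end 4040 were higher and 3805 lower, and beyond that 1069 and 1241.

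**Figure D1:**
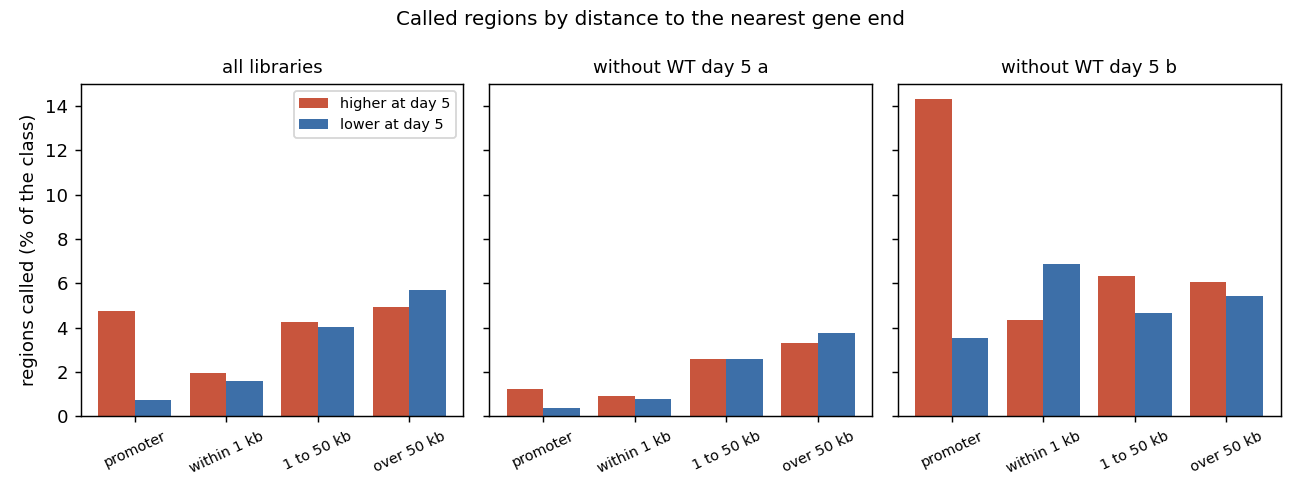
Percent of the regions of each class called higher (red) or lower (blue) in WT at day 5 against day 4, by distance from the nearest gene end, with all libraries and without each day 5 library. Promoter regions were called higher in 4.77% with all libraries and in 1.21% without day 5 a.

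The promoters shown here are RGR, RLBP1 and TMC3, which the naming rule gave, and HES5 and NANOG, which are listed genes. HES5 encodes a Notch effector that keeps neural progenitors undifferentiated. RGR and RLBP1 encode proteins of the visual cycle in retinal pigment epithelium and Müller glia, and TMC3 is a member of the transmembrane channel-like family. NANOG, a core factor of the pluripotent state, is shown as a promoter that closed. The windows run from 250 bases before to 50 after the RefSeq start (GRCh38.p14) and are printed in the direction of the gene. Capitals mark TGGGAA (core of the RBPJ motif) or its reverse complement in HES5, TAATCC (core of the OTX and CRX motif) in RGR and RLBP1, CCAAT in TMC3 and ACAATG (a SOX motif) in NANOG. In RLBP1 the called region overlaps the first 168 printed bases, and the marked TAATCC lies after them, outside that region. Unmarked matches on either strand also stand in these windows: TAATCC in NANOG, ACAATG in HES5 and RGR, TGGGAA in RGR and CCAAT in HES5. The marked letters therefore do not set the opened promoters apart from the closed one.
HES5, minus strand, chr1:2530214-2530513: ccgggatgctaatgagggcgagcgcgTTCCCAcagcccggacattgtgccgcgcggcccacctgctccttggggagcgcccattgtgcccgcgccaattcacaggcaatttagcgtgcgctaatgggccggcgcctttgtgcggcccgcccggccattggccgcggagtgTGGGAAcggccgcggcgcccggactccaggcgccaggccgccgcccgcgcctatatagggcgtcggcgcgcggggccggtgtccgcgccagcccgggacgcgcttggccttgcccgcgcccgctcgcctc
RGR, plus strand, chr10:84244803-84245102: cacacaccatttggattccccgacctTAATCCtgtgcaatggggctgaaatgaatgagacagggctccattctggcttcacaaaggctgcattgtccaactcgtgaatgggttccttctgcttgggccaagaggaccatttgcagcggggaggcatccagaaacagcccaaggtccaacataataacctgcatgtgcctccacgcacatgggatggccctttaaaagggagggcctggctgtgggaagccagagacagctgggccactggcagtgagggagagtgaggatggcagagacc
RLBP1, minus strand, chr15:89221530-89221829: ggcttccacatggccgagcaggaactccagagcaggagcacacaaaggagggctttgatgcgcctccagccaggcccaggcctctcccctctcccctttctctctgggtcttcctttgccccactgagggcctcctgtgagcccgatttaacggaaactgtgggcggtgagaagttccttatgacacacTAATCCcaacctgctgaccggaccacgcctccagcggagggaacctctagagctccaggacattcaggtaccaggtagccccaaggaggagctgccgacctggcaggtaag
TMC3, minus strand, chr15:81374164-81374463: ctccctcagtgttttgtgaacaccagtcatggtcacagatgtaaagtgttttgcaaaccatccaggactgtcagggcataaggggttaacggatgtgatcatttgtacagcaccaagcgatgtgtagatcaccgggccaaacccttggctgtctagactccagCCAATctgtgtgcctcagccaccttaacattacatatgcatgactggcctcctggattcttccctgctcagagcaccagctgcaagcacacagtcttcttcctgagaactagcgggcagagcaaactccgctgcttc
NANOG, plus strand, chr12:7789152-7789451: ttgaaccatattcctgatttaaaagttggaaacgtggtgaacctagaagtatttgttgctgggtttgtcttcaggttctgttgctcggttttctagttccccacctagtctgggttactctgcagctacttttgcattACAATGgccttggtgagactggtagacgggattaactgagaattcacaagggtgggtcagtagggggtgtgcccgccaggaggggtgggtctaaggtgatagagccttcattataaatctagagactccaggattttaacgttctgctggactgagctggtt

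The HES5 promoter region, chr1:2530311-2530511, had 22.8 and 15.1 CPM at day 5, against 8.70 and 7.16 CPM at day 4. The groups did not overlap, and the region was higher with either day 5 library alone (log2 fold change 1.21 ± 0.18 (SE), edgeR adjusted p = 1.13e-05). The RGR promoter region, chr10:84244734-84244934, had 17.5 and 17.0 CPM at day 5, against 2.94 and 3.61 CPM at day 4. It was 2.39 ± 0.21 higher on the log2 scale (edgeR adjusted p = 2.76e-10), and at day 1 it had stood at 0.781 and 0.195 CPM. The RLBP1 promoter region, chr15:89221662-89221862, had 7.35 and 7.02 CPM at day 5, against 1.69 and 2.99 CPM at day 4. It rose by 1.61 ± 0.26 (edgeR adjusted p = 6.47e-05). The TMC3 promoter region, chr15:81374155-81374355, had 9.85 and 11.1 CPM at day 5, against 1.63 and 2.06 CPM at day 4, a rise of 2.52 ± 0.25 (edgeR adjusted p = 4.46e-09). All 4 remained called without each WT library in turn.

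The NANOG promoter region, chr12:7789245-7789445, had 3.53 and 3.57 CPM at day 5, against 8.77 and 5.73 CPM at day 4 (log2 fold change -1.02 ± 0.27 (SE), edgeR adjusted p = 0.0153). Its call was lost in at least 1 of the fits that left out a library. The promoter of SIGIRR, an inhibitor of interleukin-1 and Toll-like receptor signalling, closed to 7.65 and 4.96 CPM at day 5, against 14.7 and 14.2 CPM at day 4 (edgeR adjusted p = 5.27e-05). Other promoters that the naming rule gave were, among the higher, those of 2 long non-coding RNA genes nearest the protein-coding genes DBX2 and RASSF10, with log2 fold changes of 1.52 and 1.39. Among the lower they were BRI3, HRH2 and 3 non-coding genes nearest TWIST1, SVIL and LRRN2, with -1.47 to -1.13. The calls at DBX2, TWIST1, SVIL, BRI3 and HRH2 did not pass every fit that left out a WT library. Among listed genes, a promoter window of DNMT3B that lies inside the gene, a de novo DNA methyltransferase, rose to 13.4 and 15.1 CPM at day 5, against 8.01 and 7.60 CPM at day 4 (edgeR adjusted p = 0.00142, also without each library). Other DNMT3B regions went the other way, with log2 fold changes of -0.67 at 229 bp from a gene end and -1.44 at 1786 bp, neither called in every fit. The promoters of CRIPTO, DPPA4 and KLF4, which belong to the pluripotent state, fell by 0.70, 0.89 and 0.56 on the log2 scale. A window inside the gene of FABP7, a fatty acid binding protein of radial glia, was 0.46 higher. These 4 calls did not pass every fit that left out a WT library.

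In all, 9 motifs were searched by their letters on both strands of the 300-base windows. The CCAAT box, CCAAT or ATTGG, stood in 55.2% of the 848 promoters with a higher region and in 29.2% of the 120 with a lower one. It stood in 35.1% of the 14610 promoters that a tested region overlapped and in 35.7% of all 27195 windows. Without day 5 a, the shares were 48.7% of 199 promoters and 28.3% of 60. TAATCC was in 3.66% of the promoters with a higher region, 6.67% of those with a lower one, 4.23% of those overlapped by a tested region and 6.37% of all windows. TGGGAA was in 23.6%, 19.2%, 21.9% and 24.3% in the same order, and ACAATG in 7.55%, 12.5%, 6.02% and 10.9%. The AP-1 motif TGANTCA was in 4.72%, 12.5%, 4.21% and 7.73%. Of these 5 motifs, CCAAT had the widest gap between the promoters with a higher region and those overlapped by a tested region. The E-box CANNTG was in 57.9%, 71.7%, 60.4% and 68.9%, and the GC box GGGCGG in 71.8%, 60.8%, 70.7% and 44.7%. The OCT motif ATGCAAAT was in 1.65%, 3.33%, 1.46% and 1.80%, and the CRE TGACGTCA in 4.72%, 3.33%, 3.24% and 1.98%. Without day 5 a, TAATCC stood in 6.53% of promoters with a higher region and 11.7% of those with a lower one. GGGCGG then stood in 62.3% and 60.0%. For both motifs the share of the higher promoters thus moved across that of promoters overlapped by a tested region. Matches of different motifs may overlap, and these shares describe letters in a window, with no binding measured.

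Several pluripotency loci closed between the days, while most of the list was not called. Of 25 core and primed pluripotency genes, 10 were lower at day 5 and 0 higher, against 5.04% lower and 4.61% higher over all genes. Of the 10, 2 were called in all 5 fits. The median log2 fold change of the list was -0.23, against -0.01 for all genes, and the list's summed level was 1551 to 1678 CPM at day 5 and 1791 to 1868 CPM at day 4. POU5F1, which encodes the core factor OCT4, had 8.12 and 9.95 CPM at day 5, against 17.5 and 15.9 CPM at day 4 (log2 fold change -0.86 ± 0.20 (SE), edgeR adjusted p = 0.00603). NANOG had 9.69 and 10.4 CPM at day 5, against 20.1 and 15.7 CPM at day 4 (-0.82 ± 0.18, edgeR adjusted p = 0.00308). In neither gene did the days overlap. Both calls held with day 5 b alone and were lost in another of the fits that left out a library. SOX2, which pluripotent and neural cells share, was not called, at 155 and 166 CPM at day 5 and 188 and 163 CPM at day 4.

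FGF2, the growth factor of hESC media, stood out in the list. Its locus had 29.5 and 34.3 CPM at day 5, against 58.8 and 54.0 CPM at day 4 (log2 fold change -0.80 ± 0.10 (SE), edgeR adjusted p = 6.58e-06). Of its 9 regions, 5 were lower and 0 higher, 3 of them outside the gene, among these chr4:122796922-122797122, and 2 inside it. FGF2 and ESRG, a primate-specific non-coding RNA gene of pluripotent cells, were the list members called without each WT library in turn. CRIPTO, the Nodal co-receptor, had 22.4 and 28.9 CPM at day 5, against 41.3 and 37.1 CPM at day 4. PRDM14, a repressor of differentiation, had 77.1 and 81.5 CPM at day 5, against 104 and 96.5 CPM at day 4. DPPA4, ZFP42, L1TD1 and PODXL were also lower, by 0.31 to 0.45 on the log2 scale. L1TD1 was 0.09 higher, with no call, when regions within 1 kb alone were summed.

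Of 15 Nodal and Activin genes, 4 were lower at day 5 and 0 higher, against 5.04% lower and 4.61% higher over all genes, and 1 of the 4, CRIPTO, is in the pluripotency list too. The ligand NODAL had 19.5 and 17.2 CPM at day 5, against 27.0 and 25.9 CPM at day 4 (log2 fold change -0.54 ± 0.12 (SE), edgeR adjusted p = 0.00486). GDF3, a related ligand, had 0.285 and 1.95 CPM at day 5, against 4.54 and 5.70 CPM at day 4 (-1.90 ± 0.41, edgeR adjusted p = 0.00277). Its 2 day 5 libraries differed widely, at a low count, and it was the only 1 of the 4 called without each WT library in turn. FOXH1, the DNA-binding partner of the SMADs in this pathway, had 46.7 and 50.2 CPM at day 5, against 63.7 and 58.5 CPM at day 4. Among 22 BMP genes, SMAD6, an inhibitor of BMP signalling, rose to 166 and 155 CPM at day 5, against 126 and 123 CPM at day 4 (0.37 ± 0.06, edgeR adjusted p = 0.00021, also without each library). ID3, a BMP target, was higher by 0.33 and BMP4 lower by 0.36 on the log2 scale, and neither passed every fit that left out a library.

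Of 17 epithelial genes, 5 were lower at day 5 and 0 higher, against 5.04% lower and 4.61% higher over all genes, with a list median of -0.15. CDH1, which encodes E-cadherin, had 68.4 and 65.1 CPM at day 5, against 98.3 and 103 CPM at day 4 (log2 fold change -0.60 ± 0.08 (SE), edgeR adjusted p = 6.58e-06). Of its 16 regions 6 were lower and 0 higher, all inside the gene. CLDN7, a tight-junction claudin, had 22.8 and 21.8 CPM at day 5, against 43.9 and 40.5 CPM at day 4 (-0.93 ± 0.12, edgeR adjusted p = 7.1e-06). GRHL2, a factor that sustains epithelial genes, had 17.1 and 16.4 CPM at day 5, against 30.6 and 26.6 CPM at day 4 (-0.78 ± 0.13, edgeR adjusted p = 0.000298). These 3 genes were called without each WT library in turn, while RAB25 and MARVELD3 were not. CDH2, which encodes N-cadherin, was not called, with 50.2 and 48.5 CPM at day 5 and 57.8 and 50.8 CPM at day 4. A region inside CDH2, chr18:28175395-28175595, was called higher by 0.71 on the log2 scale (edgeR adjusted p = 0.0338), though not in every fit. It had 11.6 and 8.08 CPM at day 5, against 6.20 and 5.42 CPM at day 4.

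**Figure D2:**
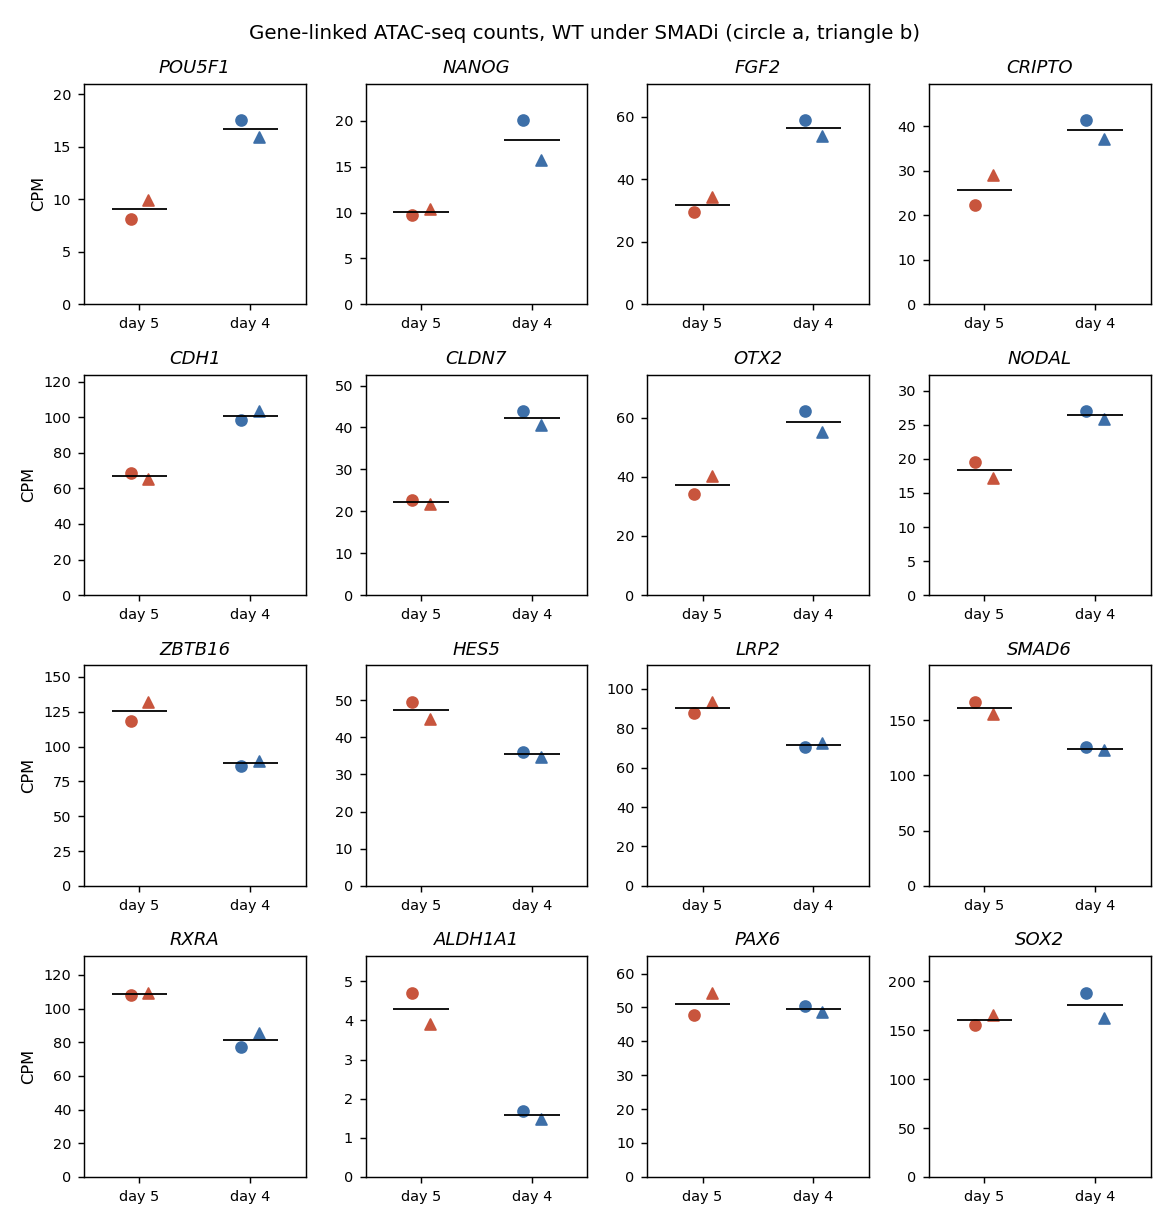
Gene-linked CPM of 16 listed genes in the WT libraries at day 5 (red, left) and day 4 (blue, right), circles for replicate a, triangles for b and bars for means. For CLDN7 the day 5 libraries stood at 22.8 and 21.8 CPM, below both day 4 libraries, while PAX6 overlapped between the days.

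Of the 10 neuroectoderm markers, 1 was called, against 9.65% of all genes: OTX2, and it fell. OTX2, a forebrain and midbrain factor that is also active in primed pluripotent cells, had 34.1 and 40.3 CPM at day 5, against 62.2 and 55.1 CPM at day 4 (log2 fold change -0.64 ± 0.11 (SE), edgeR adjusted p = 0.000203, also without each library). PAX6, the eye-field and forebrain factor, had 47.9 and 54.3 CPM at day 5 and 50.5 and 48.6 CPM at day 4, with the days overlapping, while 2 of its 9 regions were higher. SOX1, an early marker of the neural plate, was at 125 and 139 CPM at day 5 and 159 and 142 CPM at day 4 (edgeR adjusted p = 0.0641). SIX3, of the anterior neural plate, was at 211 and 217 CPM at day 5 and 197 and 190 CPM at day 4 (edgeR adjusted p = 0.12). LHX2, HESX1, ZIC1 and NES were not called either, with log2 fold changes from -0.19 to 0.09.

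Of 24 neural stem and progenitor genes 3 were higher and 0 lower, against 4.61% higher and 5.04% lower over all genes, and the list median was 0.00. All 3 were called without each WT library in turn. ZBTB16, a zinc-finger repressor of early neural progenitors, had 119 and 132 CPM at day 5, against 86.4 and 89.7 CPM at day 4 (log2 fold change 0.51 ± 0.07 (SE), edgeR adjusted p = 6.58e-06). Of its 23 regions 4 were higher, all within the gene. The strongest by p, chr11:114092081-114092281, had 25.3 and 24.6 CPM at day 5 against 5.01 and 6.48 CPM at day 4. HES5 had 49.5 and 45.0 CPM at day 5, against 36.1 and 34.8 CPM at day 4 (0.40 ± 0.10, edgeR adjusted p = 0.00642). LRP2, an endocytic receptor of the neuroepithelium, had 87.6 and 93.1 CPM at day 5, against 70.2 and 72.2 CPM at day 4 (0.35 ± 0.07, edgeR adjusted p = 0.00201).

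Of 28 genes of neurogenesis and early neurons, MYT1 was higher and NEUROG2, INSM1, POU4F1 and MAP2 were lower, against 4.61% higher and 5.04% lower over all genes, with log2 fold changes of 0.31 and of -0.49 to -0.36. None of these 5 calls passed every fit that left out a WT library. NEUROG2, a proneural factor, had 21.1 and 24.5 CPM at day 5, against 34.9 and 28.4 CPM at day 4. FOXN4, a factor of retinal and spinal progenitors, was among the 10 genes of smallest p and rose to 68.5 and 64.1 CPM at day 5, against 44.8 and 43.4 CPM at day 4 (0.58 ± 0.09, edgeR adjusted p = 6.45e-05). Its regions within 1 kb alone gave -0.20, with no call. In the anterior neural list of 30 genes, LHX5 was higher and OTX2, DMRTA2, NKX2-1 and DLX2 lower. Of 22 midbrain, hindbrain and caudal genes, EN1 was lower and 0 were higher.

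Of 17 retinoic acid genes 3 were higher and 0 lower, against 4.61% higher and 5.04% lower over all genes, and the list median was -0.02. ALDH1A1, an enzyme that makes retinoic acid, had 4.70 and 3.90 CPM at day 5, against 1.69 and 1.47 CPM at day 4 (log2 fold change 1.41 ± 0.30 (SE), edgeR adjusted p = 0.00273). RXRA, a partner of the retinoic acid receptors, had 108 and 109 CPM at day 5, against 77.0 and 85.6 CPM at day 4 (0.42 ± 0.07, edgeR adjusted p = 0.00027). Both were called without each WT library in turn. RXRG was 0.28 higher and lost its call in at least 1 of those fits. Regions of RXRA and RXRG within 1 kb alone gave -0.015 and -0.012, with no call.

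Lists of neighbouring fates are read against the 5.04% lower and 4.61% higher of all genes. Of 20 neural crest genes 4 were lower and 0 higher, TFAP2A, TFAP2B, TWIST1 and FOXD3, by 0.30 to 0.64 on the log2 scale, and none of the 4 passed every fit that left out a WT library. Of 20 placode and surface ectoderm genes 5 were lower and 1 higher, and GRHL2 is 1 of the 5. FOXI3, a placode factor, had 30.2 and 40.3 CPM at day 5, against 65.8 and 51.8 CPM at day 4 (log2 fold change -0.70 ± 0.12 (SE), edgeR adjusted p = 0.000203). GRHL3, of surface ectoderm, was higher over its locus, at 55.2 and 55.0 CPM at day 5 against 37.2 and 39.5 CPM at day 4, although its promoter region was lower. Of 23 streak and mesoderm genes 7 were lower and 1 higher. WNT8A, a WNT ligand of the primitive streak, had 28.9 and 30.1 CPM at day 5, against 52.8 and 49.0 CPM at day 4 (-0.78 ± 0.12, edgeR adjusted p = 6.05e-05). TBXT, the brachyury gene, was low at 2.99 and 3.70 CPM at day 5, against 7.66 and 6.21 CPM at day 4. APLNR, the apelin receptor gene, was the one that opened, with 12.3 and 15.3 CPM at day 5, against 6.49 and 8.83 CPM at day 4. Of these 8 mesoderm calls, that of WNT8A passed without each WT library in turn.

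**Figure D3:**
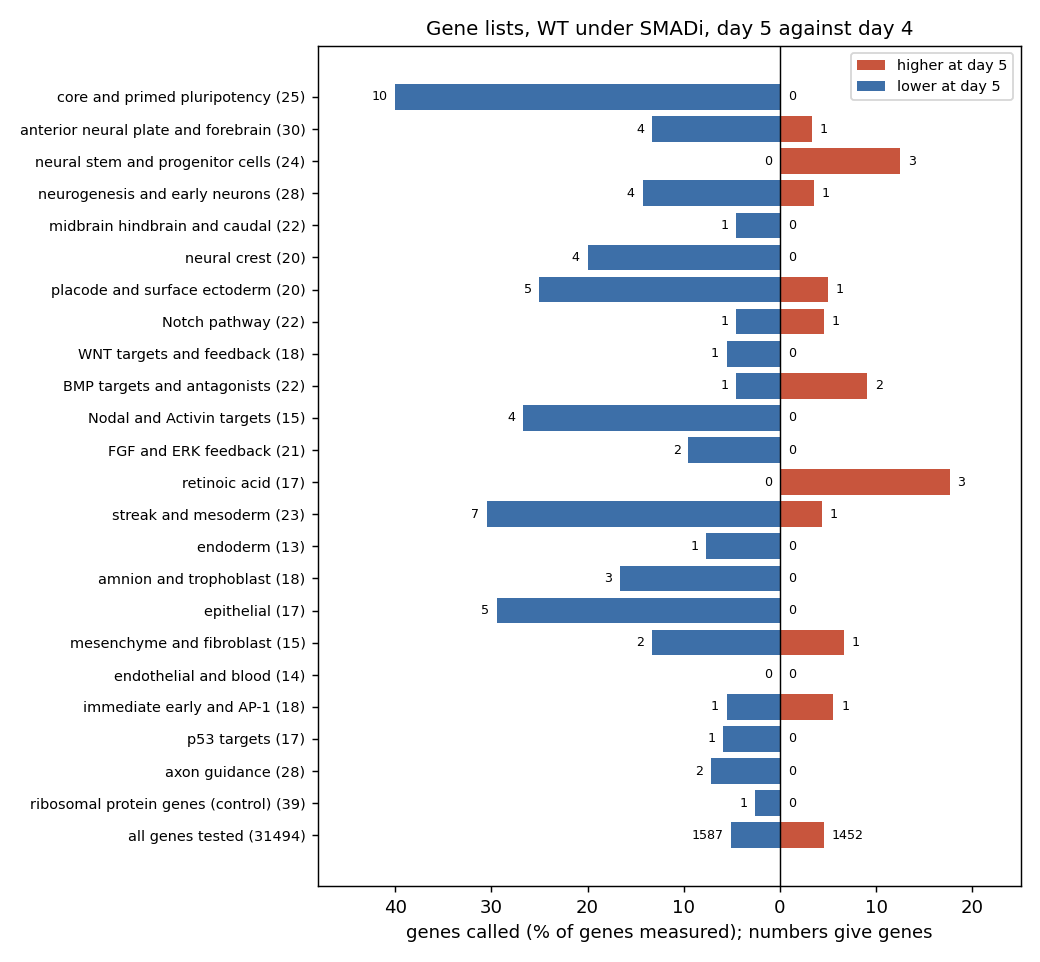
Percent of the measured genes of each list called higher (red, right) or lower (blue, left) in WT at day 5 against day 4. Bracketed numbers are genes measured and the other numbers genes called, with 10 of 25 pluripotency genes lower and 3 of 24 neural progenitor genes higher.

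Calls in the signalling and control lists are read against the 4.61% higher and 5.04% lower of all genes. For the Notch list and the FGF and ERK list, the share called was near the 9.65% of all genes. Among 22 Notch genes HES5 was higher and RBPJ, the DNA-binding factor of the pathway, lower, with 2.28 and 2.76 CPM at day 5 against 5.58 and 6.53 CPM at day 4. Of 21 FGF and ERK genes, FGF2 and SPRY1 were lower and 0 were higher. SPRY1, a feedback inhibitor of FGF receptors, had 79.7 and 80.2 CPM at day 5, against 104 and 99.8 CPM at day 4 (edgeR adjusted p = 0.0017, also without each library). Of 18 WNT genes WIF1 was lower, and of 17 p53 targets PMAIP1 was lower, at 46.3 and 47.2 CPM at day 5 against 84.1 and 63.9 CPM at day 4. Of 39 ribosomal protein genes, a control list, RPS20 was lower. Of 14 endothelial and blood genes 0 were called in either direction by edgeR.

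The 10 genes of smallest p in each direction reached beyond the lists. Besides ZBTB16, TMC3, RGR and FOXN4, the higher ones were WDR43, SMIM38, PLCH2, MOGAT2, GINS2 and ZNF280A, by 0.54 to 2.70 on the log2 scale. WDR43, a ribosome biogenesis factor, had 45.2 and 41.1 CPM at day 5, against 21.2 and 23.5 CPM at day 4 (edgeR adjusted p = 4.43e-06). Besides FGF2, CDH1 and CLDN7, the lower ones were SCGB3A2, DPRX, AHI1, DYNAP, MIURF, ACSM3 and GAL, by 0.86 to 1.82. SCGB3A2, a secretoglobin gene, had 27.9 and 25.7 CPM at day 5, against 54.4 and 50.2 CPM at day 4 (edgeR adjusted p = 2.82e-06). DPRX, a homeobox gene of the early embryo, had 30.8 and 28.8 CPM at day 5, against 55.4 and 52.0 CPM at day 4. GAL, the galanin gene, averaged 11.2 ± 1.7 CPM at day 5 and 24.1 ± 3.1 CPM at day 4 (SD, n = 2 each). All 20 were called without each WT library in turn.

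Away from promoters, the naming rule gave 10 regions in each direction. Those that opened rose by 2.92 to 3.69 on the log2 scale, and those that closed changed by -2.92 to -2.25. All 20 were called without each WT library in turn. The largest rise was 15600 bp from SENP1, a SUMO protease gene, at chr12:48121579-48121779, with 5.29 and 4.70 CPM at day 5 against 0.438 and 0.311 CPM at day 4. A region inside LIPC, the hepatic lipase gene, at chr15:58475660-58475860, had 13.2 and 11.7 CPM at day 5 against 1.19 and 1.31 CPM at day 4, from 90 and 177 counts against 19 and 21. A region inside ZBTB16, chr11:114220068-114220268, had 6.76 and 4.70 CPM at day 5 against 0.689 and 0.561 CPM at day 4. By nearest protein-coding gene, others that opened lay at COLGALT1, SAMD12, MYADM, RFPL3, SCUBE1 and PINX1.

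Among the regions that closed, 1 inside TENT5B, a poly(A) polymerase family gene, at chr1:27007185-27007385, had 0.882 and 0.927 CPM at day 5 against 6.82 and 4.98 CPM at day 4. A region near PKNOX1, a TALE homeobox gene, at chr21:42959847-42960047, had 1.18 and 1.52 CPM at day 5 against 9.33 and 7.60 CPM at day 4. A region near QRSL1, at chr6:106614960-106615160, had 1.03 and 2.71 CPM at day 5 against 9.96 and 11.1 CPM at day 4. At 7 and 41 counts at day 5 the level of this last region was set by few reads. By nearest protein-coding gene, the others lay at TMEM70, NBEA, LOC124904927, PSMG3, FUT8, COXFA4 and HAUS3.

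The regions of the change had different histories before day 4. The WT levels of days 4 and 5 chose these sets, while day 1 and the mutant lines did not enter their selection except through the shared spread. In the higher set the median over regions was 1.56 and 1.49 CPM at day 1, 3.26 and 3.67 CPM at day 4 and 7.94 and 7.08 CPM at day 5. In the lower set it was 4.27 and 4.55 CPM at day 1, 5.13 and 4.86 CPM at day 4 and 1.76 and 2.12 CPM at day 5. The median over all tested regions lay between 3.97 and 4.20 CPM in these libraries.

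At day 4 the mutant lines were near the WT day 5 level at the higher regions and below it at the lower ones. At the higher regions their day 4 medians were 8.35 CPM in KO and 7.66 and 7.45 CPM in DATG, and their day 5 medians were 9.88 and 10.99 CPM in KO and 10.4 CPM in DATG. At the lower regions the day 4 medians were 1.14 CPM in KO and 1.34 and 1.27 CPM in DATG, and at day 5 they were 0.859 and 0.703 CPM in KO and 0.789 CPM in DATG. From day 4 to day 5 the mutant lines still moved the same way: KO had the sign of WT at 74.3% of the higher and 66.9% of the lower regions, with 55.7% over all tested regions. In DATG the shares were 82.6% and 79.2%, with 59.7% over all. The median changes of the mutants were smaller, 0.27 in KO and 0.33 in DATG at the higher regions and -0.40 and -0.60 at the lower ones, against 1.03 and -1.30 in WT, whose values chose the regions.

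**Figure D4:**
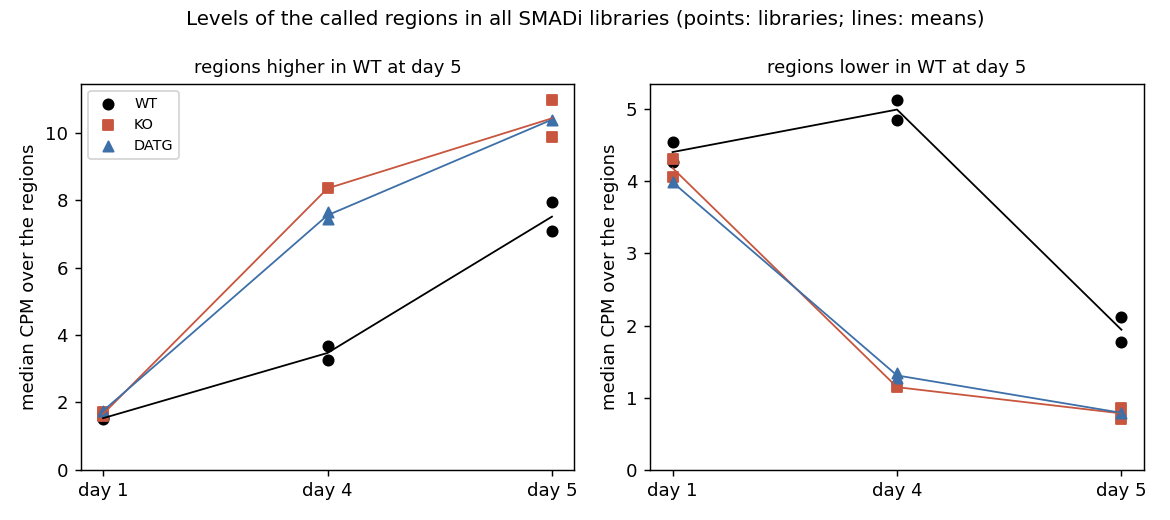
Median CPM over the 6414 regions higher (left) and the 5647 regions lower (right) in WT at day 5, at days 1, 4 and 5, for WT (black), KO (red) and DATG (blue); points are libraries and lines means. At day 4 the KO library stood at 8.35 and 1.14 CPM, past both WT day 5 libraries in each set.

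Whether the WT change differed from that of the mutant lines was tested gene by gene. The WT change differed from the KO change at 935 of 31494 genes (2.97%), above it at 652 (2.07%) and below it at 283 (0.899%). It differed from the DATG change at 365 genes (1.16%), above at 229 (0.727%) and below at 136 (0.432%). Both tests share the WT libraries, and each rests on a mutant group of 1 library. Leaving out 1 library moved the KO count between 164 (without WT day 4 a) and 3515 (without WT day 5 b), and the DATG count between 30 (without DATG day 4 a) and 2081 (without WT day 5 b).

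OTX2 was among the genes of smallest p for DATG. It fell in WT, while its change was 0.20 ± 0.12 in KO and 0.23 ± 0.12 in DATG (SE), and the WT change minus theirs was -0.84 for KO (edgeR adjusted p = 0.00362) and -0.87 for DATG (edgeR adjusted p = 0.00577). At day 5 OTX2 had 34.1 and 40.3 CPM in WT, 64.7 and 52.6 CPM in KO and 62.5 CPM in DATG. FGF2 changed by -0.07 in KO and -0.03 in DATG, with differences of -0.74 and -0.77 (edgeR adjusted p = 0.00929 and 0.0101). Its locus was already at 38.4 CPM in KO and at 36.3 and 38.6 CPM in DATG at day 4, below both WT day 4 libraries. FOXN4 rose in WT and changed by -0.32 in KO and -0.23 in DATG, with differences of 0.90 and 0.82 (edgeR adjusted p = 0.000333 and 0.00427). Of the 25 pluripotency genes, the WT change was below the KO change at FGF2 and above it at CD9, the tetraspanin gene. For CDH1, CLDN7, ZBTB16 and LRP2 the change from day 4 to day 5 was not called different from that of either mutant line. Their levels were not compared by a test. At day 5 CDH1 had 35.1 and 34.4 CPM in KO and 38.0 CPM in DATG, against 68.4 and 65.1 CPM in WT. CLDN7 had 5.21 and 4.40 CPM in KO and 4.86 CPM in DATG, against 22.8 and 21.8 CPM in WT. ZBTB16 was higher in the mutants, at 220 and 230 CPM in KO and 220 CPM in DATG, against 119 and 132 CPM in WT.

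**Figure D5:**
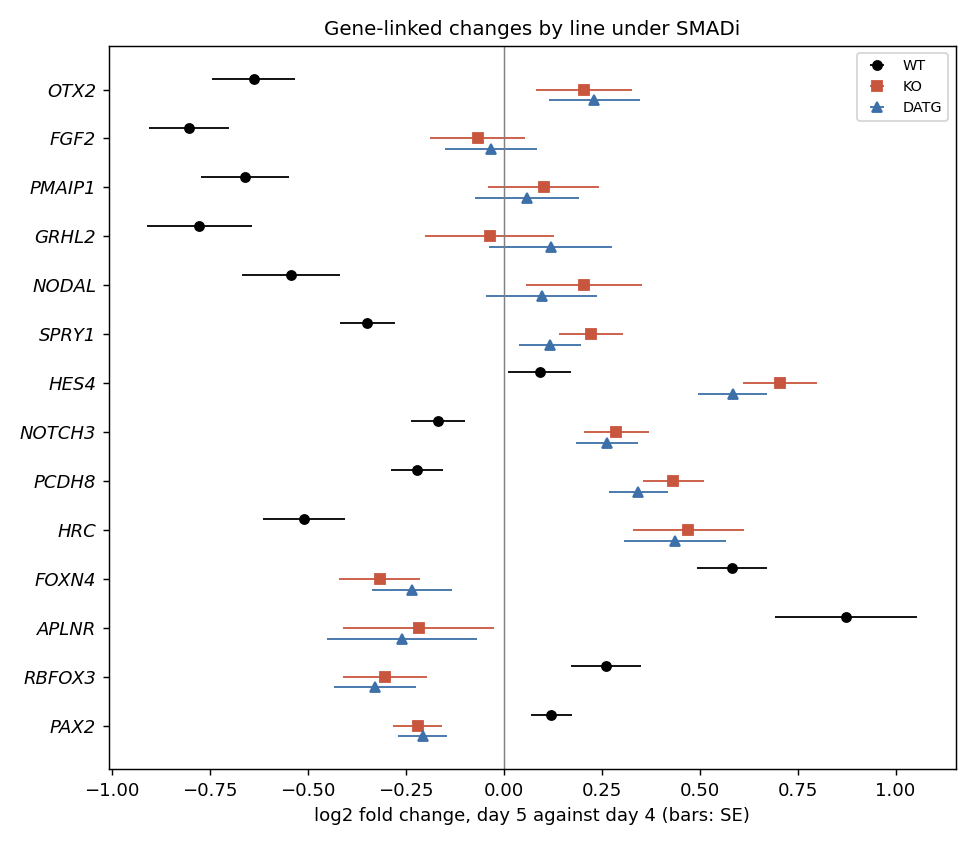
Log2 fold change of gene-linked counts at day 5 against day 4 in WT (black), KO (red) and DATG (blue) for 14 genes whose WT change differed from that of KO, with standard errors. OTX2 changed by -0.64 in WT and by 0.20 in KO and 0.23 in DATG, and FOXN4 by 0.58, -0.32 and -0.23 in the same order.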

How the data were processed

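ATAC-seq counts per 201 bp region of GRCh38 were deposited by the authors as raw counts in 3 region tables, and the table of 15 SMADi libraries was used. MACS2 is named in the submitters' processing notes, while its version and the aligner are not given in the sources used. Groups came from the labels. Counts were fitted with edgeR 4.0.16 in R 4.3.3 (TMM, filterByExpr, robust quasi-likelihood F test, 1 mean per genotype and day over all 15 libraries, Benjamini-Hochberg adjustment, threshold 0.05). Gene-linked counts sum the regions nearest to a RefSeq gene end (GRCh38.p14, 38151 genes) within 50 kb, without strand, so overlapping genes cannot be told apart. Promoters are windows of 250 bases before to 50 after the start for 27195 genes, in a table that is not complete. CPM values are counts scaled by the TMM-normalised library size.

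Named were, per direction, the 10 regions and 6 promoters of largest change among calls of at least median level whose days did not overlap, 10 protein-coding genes of smallest p, 5 for each line difference, and list members. A promoter and a region that the rule gave are not reported here. Members, lists and marked motifs were chosen with earlier results of these data known. The scripts were tested on simulated data. Alternatives were RLE, total-count and loess scaling, other filters, DESeq2 1.42.0, thinning, WT libraries alone, linking distances, a replicate block and leaving out each replicate. The 3-count floor covers counting error only.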

Additional observations from a re-analysis of the deposited data

Results flagged for a closer look

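The change of WT from day 4 to day 5 was tested against that of KO as a difference of changes in the same edgeR fit, and 935 of 31494 genes passed an adjusted p of 0.05. Among the listed and named genes, the log2 change of WT exceeded that of KO by these amounts: ARHGAP11A-SCG5 3.39, DNPEP 1.98, LOC107983989 1.5, ATOSA 1.22, APLNR 1.09, FOXN4 0.90, FLI1 0.68, RBFOX3 0.56, CD9 0.53 and PAX2 0.34. It was below that of KO at the others, with differences of OSTN -2.09, HRC -0.98, XRCC5 -0.88, OTX2 -0.84, PMAIP1 -0.76, NODAL -0.75, GRHL2 -0.74, FGF2 -0.74, BARHL1 -0.72, MARVELD2 -0.70, PCDH8 -0.66, HES4 -0.61, SPRY1 -0.57, HES1 -0.54, ZIC5 -0.53, MAP2 -0.50, OTX1 -0.46, NOTCH3 -0.46, FOSB -0.44 and SOX1 -0.41. A difference need not mean a change in WT. Examples are ARHGAP11A-SCG5, DNPEP, LOC107983989 and ATOSA, which were not called in WT, while their log2 changes in KO were -2.77, -1.76, -1.33 and -0.97. SOX1, HES1, HES4, NOTCH3, FLI1, PAX2 and RBFOX3 were not called in WT either.

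The change of WT from day 4 to day 5 was tested against that of DATG as a difference of changes in the same edgeR fit, and 365 of 31494 genes passed an adjusted p of 0.05. Among the listed and named genes, the log2 change of WT exceeded that of DATG by these amounts: ARHGAP11A-SCG5 2.70, ADAM21 2.01, APLNR 1.13, FOXN4 0.82, LOC105369591 0.62, FBP1 0.60, RBFOX3 0.59 and PAX2 0.33. It was below that of DATG at the others, with differences of NCBP2AS2 -3.40, PTGFRN -1.11, HRC -0.95, GRHL2 -0.90, OTX2 -0.87, FGF2 -0.77, PMAIP1 -0.72, PCDH8 -0.57, HES4 -0.49, SPRY1 -0.47 and NOTCH3 -0.43. The KO day 4 and DATG day 5 groups are 1 library each, and both tests use the same WT libraries. DNPEP, ARHGAP11A-SCG5, LOC107983989 and NCBP2AS2 rest on 1 region each. ARHGAP11A-SCG5, ADAM21, FBP1 and PTGFRN were not called in WT, while their log2 changes in DATG were -2.08, -2.42, -0.39 and 0.74. HES4, NOTCH3, PAX2 and RBFOX3 were not called in WT either. NCBP2AS2 stood at only 0.480 and 0.182 CPM in DATG at day 4, a low count.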

How the results depend on the processing

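Counts of calls are given for regions and genes in WT and for the WT change minus that of KO and of DATG. DESeq2's Wald test gave 4700 regions and 1653 genes, and 349 and 106 differences. Thinning all libraries to equal depth gave 493 and 159 differences, and fitting the WT libraries alone gave 7738 regions and 1775 genes. Without the library labelled KO day 1 b, 206 differences from DATG were called. Linking regions within 1 kb gave 527 genes and 94 and 16 differences. Leaving out 1 replicate at a time gave 3914 to 19011 regions, 846 to 5227 genes, 164 to 3515 differences from KO and 30 to 2081 from DATG. The causes were not tested, beyond the fewer reads, regions or libraries that thinning, the 1 kb limit and left-out libraries bring. The other scalings (RLE, total counts, loess offsets) and filters kept each count within 1.5 times. Over regions, the deviations of WT day 5 a and WT day 4 a from their group means correlated at -0.18. This single value showed no pairing by letter, but it cannot tell whether the letters mark shared cultures. With the letter as a replicate block, 10201 regions, 2598 genes and 525 and 143 differences were called, and in the 4 WT libraries alone the letter block gave 3600 regions. Crossed pairing in those 4 libraries, added after seeing the data, gave 12944. Signs turned for NES (-0.018 with loess offsets, -0.043 within 1 kb, and from -0.041 without day 5 b to 0.063 without day 4 b) and for PAX6 (-0.063 without day 5 b). Within 1 kb they turned for FOXN4 (-0.20), HESX1 (-0.067), L1TD1 (0.093), RXRA (-0.015) and RXRG (-0.012), and for the difference from KO at FOXN4 (-0.54), RBFOX3 (-0.22) and SPRY1 (0.13) and from DATG at SPRY1 (0.023). Day 5 a, with 7086918 counts, limits low regions most: 3 counts are 0.441 CPM there and 0.199 CPM in day 5 b.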

Other observations

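Some loci held several changed regions, and they were chosen after their values were seen. Opening without closing lay at BFSP2, which encodes a lens beaded filament protein, with 5 of 8 regions higher, at GABRG3, a GABA receptor subunit gene, with 5 of 10, and at ASS1, argininosuccinate synthase, with 5 of 22. PAX7, a member of the neural crest list and a paired-box factor of neural crest and dorsal neural tube, had 5 of 54 higher and 3 lower. Closing without opening lay at PHF14, with 5 of 13 regions lower. Among 28 axon guidance genes 0 were higher and 2 lower, against 4.61% higher and 5.04% lower over all genes. The 2 were SEMA3E and EFNA5, with log2 fold changes of -0.35 and -0.23, and the list median was 0.03.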
